A study of Mus musculus with 4 samples.

Results

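A set of 10 genes of bone morphogenetic protein (BMP) signalling were followed through mouse morulae and blastocysts after injection of a morpholino against NKX1-2. They are the 10 genes, of 55453 in the count matrices, whose symbols are Id1, Id2, Id3, Bmp4, Bmpr1a, Bmpr2, Smad1, Smad5, Smad4 and Bambi, and all 10 were found in all 4 plates. Rows were taken by symbol alone, from a set chosen with earlier results of these data known. RNA with a polyA tail was sequenced from single wells of mouse embryos, with a library source labelled as single cells. Each of 4 plates held 48 wells from embryos given a control morpholino and 48 wells from embryos given the NKX1-2 morpholino. Morpholinos are antisense oligonucleotides that block the translation or splicing of an RNA, and NKX1-2 is a homeobox transcription factor. The morula, a compacted ball of cells, was sampled on 2 plates, and so was the blastocyst, in which an outer trophectoderm encloses the inner cell mass. All embryos thus carried a morpholino, and none was left uninjected. The strain, the age in days and the number of embryos behind the wells are not given in the labels.

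BMP ligands such as BMP4 bring together type I and type II receptors on the cell surface, here BMPR1A and BMPR2. The type I receptor then phosphorylates SMAD1 and SMAD5, which enter the nucleus with the common partner SMAD4. Id genes are widely used as direct readouts of the pathway. Their products are helix-loop-helix proteins without a DNA-binding region that hold E proteins and other basic helix-loop-helix factors away from DNA. BAMBI is a receptor-like protein without a kinase that dampens the pathway. In the preimplantation embryo, trophectoderm cells are known to express Id2, and BMP signalling has been linked to the extraembryonic lineages.

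The 3 Id genes are close relatives, and the results turn on telling 2 of them apart. The stretches below are 120 coding bases each, 40 codons within the region of the helix-loop-helix, from the GENCODE M21 annotation and transcripts of GRCm38, read 5′ to 3′ on the coding strand. Capitals mark the bases that are the same in all 3 genes. The stretch is codons 58 to 97 of 148 in Id1 (chr2:152736512-152736631, plus strand), codons 35 to 74 of 134 in Id2 (chr12:25095789-25095908, minus strand) and codons 40 to 79 of 119 in Id3 (chr4:136143996-136144115, plus strand).
Id1: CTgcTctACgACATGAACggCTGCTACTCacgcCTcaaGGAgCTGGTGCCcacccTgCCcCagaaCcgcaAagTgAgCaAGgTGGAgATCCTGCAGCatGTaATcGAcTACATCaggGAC
Id2: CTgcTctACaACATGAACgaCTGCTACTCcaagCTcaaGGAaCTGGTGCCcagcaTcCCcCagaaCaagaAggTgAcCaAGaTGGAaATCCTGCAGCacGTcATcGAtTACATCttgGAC
Id3: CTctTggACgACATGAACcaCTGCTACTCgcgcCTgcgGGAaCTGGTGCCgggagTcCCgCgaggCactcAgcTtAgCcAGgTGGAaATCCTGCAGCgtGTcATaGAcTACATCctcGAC
Of the 120 bases, 75 were the same in all 3 genes, as were 23 of the 40 encoded residues. Id1 and Id2 shared 81.7% of the bases, Id1 and Id3 69.2%, and Id2 and Id3 70.0%. The longest run of bases that any pair shared was 15. Over whole transcripts, no stretch of 31 bases of Id1 or Id3 occurred in another gene, and 1.60% of those of Id2 occurred in Gm6175. Reads of Id2 and Id3 could therefore be assigned to their own gene over most of their length.

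The other members lie on several chromosomes of GRCm38. Bmp4 (chr14:46383520-46390669) and Bmpr1a (chr14:34410734-34503341) lie on the minus strand of chromosome 14, and Bmpr2 (chr1:59763400-59879014) on the plus strand of chromosome 1. Smad1 (chr8:79338395-79399518) lies on the minus strand of chromosome 8, and Smad5 (chr13:56703010-56742377) on the plus strand of chromosome 13. Smad4 and Bambi lie on chromosome 18. Exons on the opposite strand overlapped 3.96% of the exonic bases of Bmp4 and 4.57% of those of Bmpr1a. Exons of another gene on the same strand overlapped 1.35% of those of Smad5. The use of strand in counting is not given in the sources used here, so these shares could hold reads of a neighbour.

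Of 384 wells, 368 had at least 2000 detected genes and were kept, and their counts were summed per plate and morpholino into 8 sums of 1084312 to 2398605 counts. Median totals per well were 41251 to 48648 in the morula sums and 22391 to 37602 in the blastocyst sums. Levels below are in CPM, the counts of a gene scaled to a common total of counts per sum, with totals adjusted by the trimmed mean of M values (TMM). Marker sums, single wells and sets of wells are instead in CPM of plain totals, without TMM. No count of Nkx1-2 was found in any of the 8 sums, so its RNA gives no check of the labels. Trophectoderm markers summed to 799 to 915 CPM in the morula and 980 to 1169 CPM in the blastocyst, and inner cell mass and epiblast markers to 1691 to 1931 CPM and 600 to 736 CPM. Among 7 markers of blood, mesenchyme or feeder cells, the summed level was 6.3 to 14.8 CPM. Each stage had its own plates, so stage and plate cannot be told apart. Between stages, adjusted p-values measure the spread between plates. Between morpholinos, with the plate as a block, they measure how the difference within a plate varied over plates. Either may be technical, since the labels do not say that plates held separate litters or injections.

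Per kilobase of exon, Id3 stood first and Bmpr1a next at both stages. Division by length assumes that reads cover whole transcripts, which is not given in the sources used here. In the morula sums, Id3 lay between 269 and 477 CPM per kilobase and Bmpr1a between 8.58 and 10.2, so their ranges were far apart. Bambi (3.28 to 8.89 CPM per kilobase) overlapped with both Bmpr1a and Id1 (3.50 to 6.62). Smad4 followed at 1.65 to 2.85 CPM per kilobase, apart from the ranges of Id1 above it and Id2 below it. Id2 (0.630 to 1.09) and Bmpr2 (0.696 to 0.863) overlapped. In CPM not divided by length, Bmpr2 (12.5 to 15.5) lay above Id1 (4.06 to 7.68), Id2 (1.54 to 2.65) and Smad4 (6.14 to 10.6). Smad1, Smad5 and Bmp4 were lowest by their medians, at 0.376, 0.143 and 0.0928 CPM per kilobase.

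In the blastocyst sums, Id3 lay between 50.9 and 136 CPM per kilobase, again above every other member. Id2 had the third highest median, with 0.864 to 8.95 CPM per kilobase, a range that held those of Bmpr1a (5.21 to 7.96) and Smad4 (3.69 to 6.10). Bambi (1.04 to 6.40) and Id1 (0.651 to 5.70) overlapped with them as well. Bmpr2 (0.527 to 0.846), Smad5 (0.284 to 0.625) and Smad1 (0 to 0.528) formed the low end per kilobase, and Bmp4 had no count.

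**Figure D1:**
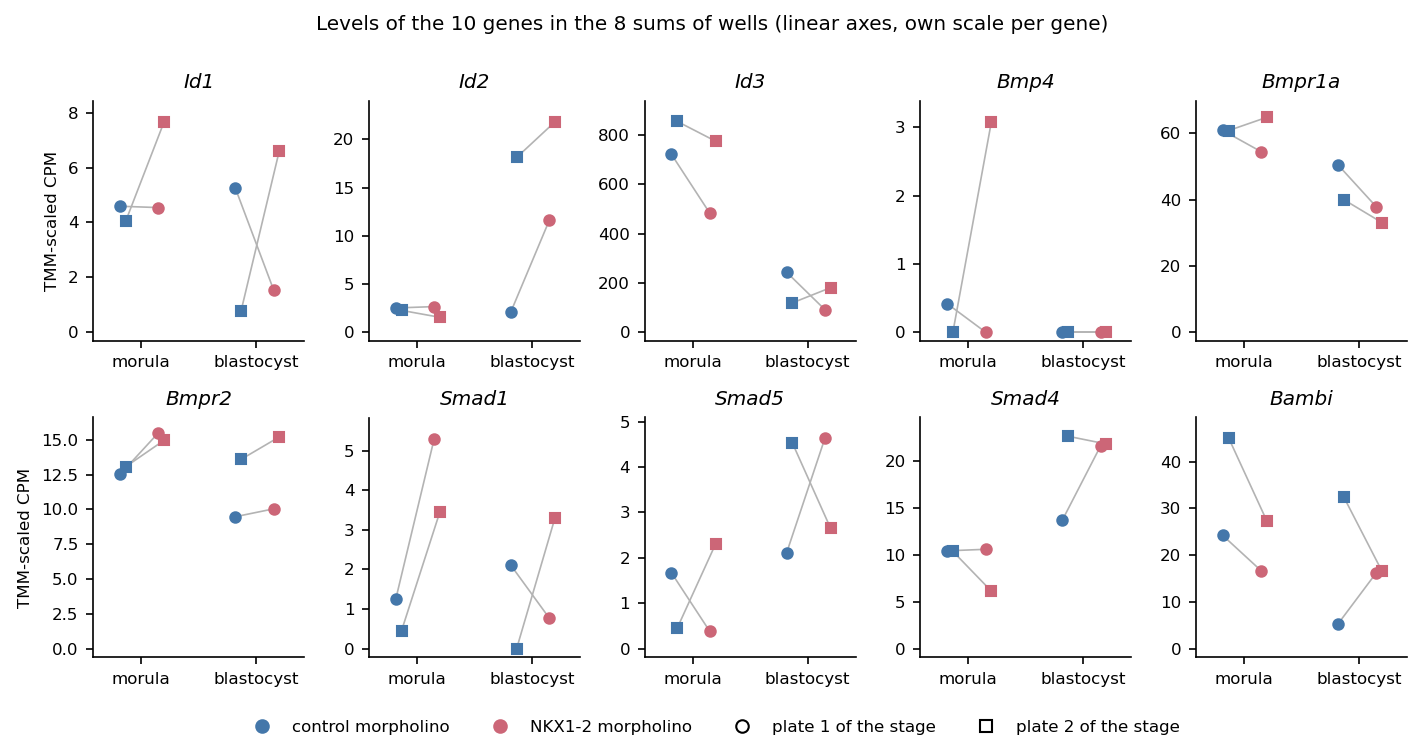
TMM-scaled CPM of each gene (y axis, linear, with its own scale per panel) in the control and NKX1-2 sums of each plate, by stage. Grey lines join the 2 sums of a plate; all 4 Id3 values of the morula lie above all 4 of the blastocyst, while Id2 is above its morula values in 3 of the 4 blastocyst sums.

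Bmp4, the ligand of the set, was at or near the limit of counting. It had 9 counts in 6 of 191 morula wells, 8 of them in 5 NKX1-2 wells of morula replicate 2 and 1 in a control well of replicate 1. No count was found in 177 blastocyst wells, which allows a share of up to 1.69% of wells with a count and a level of up to 0.532 CPM over 5643008 counts. With so few counts Bmp4 did not pass the filter on low counts in any comparison.

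The receptors were Bmpr1a, the type I receptor, and Bmpr2, the type II receptor. Bmpr1a had 60.9 and 60.9 CPM in the control sums of morula replicates 1 and 2 and 54.5 and 64.9 CPM in the NKX1-2 sums. Blastocyst sums had 50.5 and 40.0 CPM in control sums and 37.8 and 33.1 CPM in NKX1-2 sums, each below every morula value. Bmpr2 had 12.5 and 13.1 CPM in morula control sums, 15.5 and 15.0 CPM in morula NKX1-2 sums, 9.47 and 13.6 CPM in blastocyst control sums and 10.0 and 15.2 CPM in blastocyst NKX1-2 sums. Its stages overlapped. In each plate the NKX1-2 sum of Bmpr2 was above the control sum, by 1.06 to 1.24 times.

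Smad1 and Smad5, which carry the signal from the receptor, had few counts. Smad1 had 3 and 1 counts in the control sums of morula replicates 1 and 2 and 14 and 9 counts in the NKX1-2 sums. In the blastocyst it had 2 and 0 counts against 1 and 5. Without the filter on low counts, edgeR put Smad1 at a log2 fold change of 2.27 (SE 0.81) in NKX1-2 against control wells of the morula, with an adjusted p of 0.291, which did not pass. Smad5 had 1 to 6 counts in each of the 8 sums. Smad4, the common partner, had 10.4 and 10.4 CPM in morula control sums and 10.6 and 6.14 CPM in morula NKX1-2 sums. Blastocyst sums had 13.7 and 22.7 CPM in control sums and 21.6 and 21.8 CPM in NKX1-2 sums, each above every morula sum.

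Id3 was high and Id1 and Id2 low in the morula. Id3 had 721 and 855 CPM in morula control sums and 482 and 775 CPM in morula NKX1-2 sums. Its blastocyst sums had 243 and 119 CPM in control sums and 91.1 and 181 CPM in NKX1-2 sums. Every morula sum of Id3 thus lay above every blastocyst sum.

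Id2 had 2.50 and 2.25 CPM in morula control sums and 2.65 and 1.54 CPM in morula NKX1-2 sums, from 4 to 7 counts each. In the blastocyst it had 2.11 and 18.1 CPM in control sums, from 2 and 24 counts, and 11.6 and 21.8 CPM in NKX1-2 sums, from 15 and 33 counts. The control sum of blastocyst replicate 1 was at the level of the morula, and the other 3 blastocyst sums were above it. Single wells weighed on these sums: 12 of the 33 counts of the NKX1-2 sum of replicate 2, and 8 of the 24 of its control sum, came from 1 well each. Id1 stayed between 0.755 and 7.68 CPM over all 8 sums, from 1 to 20 counts, and its stages overlapped.

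Bambi, the dampening receptor-like protein, had 24.2 and 45.1 CPM in morula control sums and 16.6 and 27.3 CPM in morula NKX1-2 sums. In the blastocyst it had 5.26 and 32.5 CPM in control sums and 16.2 and 16.5 CPM in NKX1-2 sums. The 2 control sums of the blastocyst came from 5 and 43 counts, and the stages overlapped.

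Between stages, Id3 fell in the wells of both morpholinos. The control sums held 788 ± 94.5 CPM (SD, n = 2 plates) in the morula and 181 ± 88.1 in the blastocyst. The log2 fold change was -2.13 (SE 0.26, 95% interval -2.69 to -1.57) with an adjusted p of 2.3e-05 (edgeR quasi-likelihood test on sums, Benjamini-Hochberg over 9577 genes). In NKX1-2 sums the mean of Id3 went from 629 ± 207 CPM in the morula to 136 ± 63.2 CPM in the blastocyst (n = 2 plates, SD). The log2 fold change there was -2.19 (SE 0.40), with an edgeR adjusted p of 0.0112. Of the 5 members tested in control wells, Id3 was the only one that passed, as a lower gene. Across all genes tested there, 41.7% passed, 20.1% higher and 21.6% lower, so 1 of 5 is not above the background.

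Stage calls were thus common, and the size of the change tells more than its passing. The morula and blastocyst wells also differed in depth and in the share of wells that had Xist but no count of 3 Y-linked genes. That share was 52.1% and 56.3% of the control wells of morula replicates 1 and 2, and 34.9% and 14.0% of those of the blastocyst. Among NKX1-2 wells it was 20.8% and 48.9% in the morula and 74.5% and 45.5% in the blastocyst, so it was lower in the blastocyst in control wells but not in NKX1-2 wells. Its part in the morpholino comparisons was not tested beyond the fits on such wells alone. Among such wells alone, the fall of Id3 in control sums was -1.50 on the log2 scale and no longer passed (edgeR adjusted p = 0.0667), while in NKX1-2 sums it was -2.29 (edgeR adjusted p = 1.8e-05). With every well thinned to 10000 counts, the fall in control sums was -2.45 (edgeR adjusted p = 1.5e-07).

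Of the 7 members tested between stages in NKX1-2 wells, 4 passed, 2 higher and 2 lower, where 45.9% of all 10221 genes tested passed, 21.9% higher and 24.0% lower. Id2 rose by 2.98 on the log2 scale (SE 0.51, edgeR adjusted p = 0.00013), with 2.09 ± 0.787 CPM in the morula and 16.7 ± 7.24 CPM in the blastocyst (n = 2 plates, SD). Smad4 rose by 1.37 (SE 0.38, edgeR adjusted p = 0.00623), with 8.37 ± 3.15 CPM against 21.7 ± 0.140 CPM. Bmpr1a fell by 0.75 (SE 0.24, edgeR adjusted p = 0.0153), with 59.7 ± 7.36 CPM against 35.5 ± 3.38 CPM. Id1 (-0.51), Bmpr2 (-0.25) and Bambi (-0.42) did not pass.

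The calls of Smad4 and Bmpr1a were less firm than those of Id2 and Id3. With DESeq2, the adjusted p was 0.0501 for Smad4 and 0.0835 for Bmpr1a. Without morula replicate 2, blastocyst replicate 1 or blastocyst replicate 2, it was 0.0922, 0.0797 and 0.0723 for Smad4 by edgeR, and 0.0957, 0.0800 and 0.123 for Bmpr1a. Without morula replicate 1 both passed. In control wells the log2 fold change was 0.85 for Smad4 (SE 0.40, edgeR adjusted p = 0.0945) and -0.43 for Bmpr1a (SE 0.26, edgeR adjusted p = 0.194), neither of which passed. Without blastocyst replicate 1, Smad4 passed in control wells (log2 fold change 1.13, edgeR adjusted p = 0.0305).

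Id2 had too few counts in the control sums for the filter. When all 8 sums shared the spread in 1 fit, its log2 fold change between stages in control wells was 2.17 (SE 0.69, edgeR adjusted p = 0.0159). The control and NKX1-2 sums of a plate come from the same plate and are no further replicates, so this adjusted p can be too small. The control sums of blastocyst replicates 1 and 2 also held only 2 and 24 counts of Id2. A rise of Id2 in control wells was thus not settled. That the stage change of Id2 passed in NKX1-2 wells does not show that it differed from control wells. The test of that difference gave a log2 value of 0.94 (SE 0.84, 95% interval -0.84 to 2.72, edgeR adjusted p = 0.917), and 0.45 and 2.61 without blastocyst replicates 1 and 2. Bambi did not pass in control wells (log2 fold change -0.75, edgeR adjusted p = 0.347), but it passed without morula replicate 1 (-1.18, edgeR adjusted p = 0.0326) and without blastocyst replicate 2 (-2.67, edgeR adjusted p = 3.3e-05). It also passed without the filter on low counts (-0.88, edgeR adjusted p = 0.0486) and among wells that had Xist but no Y-linked count (-2.46, edgeR adjusted p = 0.0196). Without blastocyst replicate 1 it was -0.07 (edgeR adjusted p = 0.886), and without morula replicate 2 -0.30 (edgeR adjusted p = 0.688), so the value rests on which plates are compared.

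**Figure D2:**
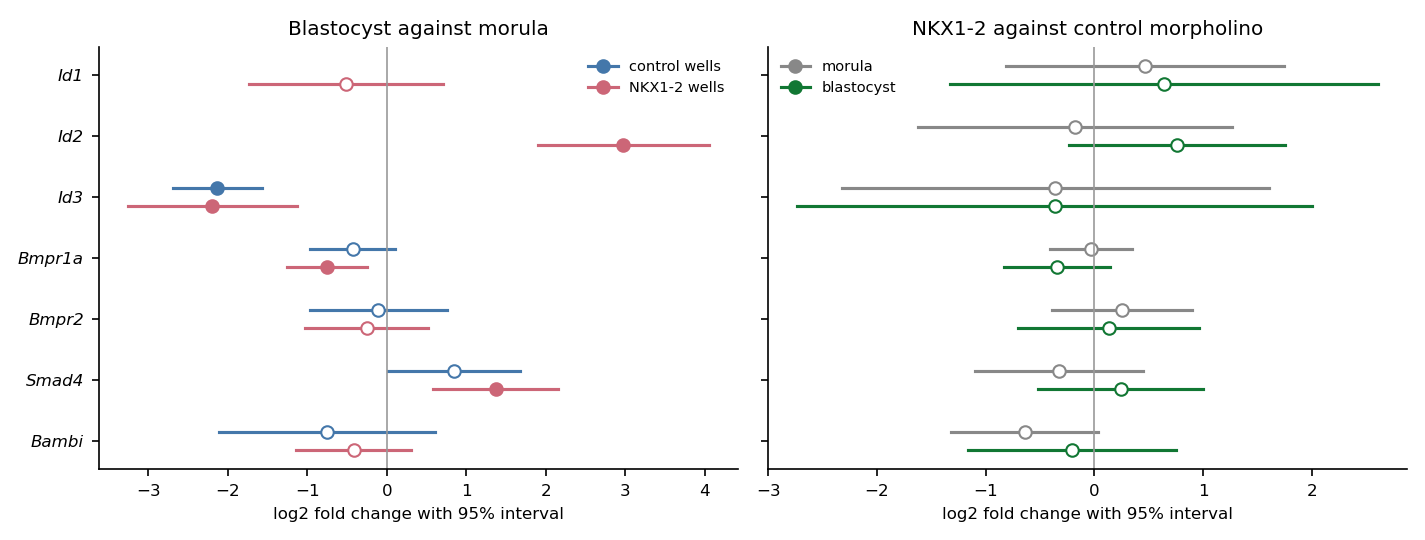
Log2 fold changes with 95% intervals (x axis) of the members that passed the filter on low counts, between stages (left, by morpholino) and between morpholinos (right, by stage), from edgeR. Filled points passed at an adjusted p under 0.05: Id3 in both stage comparisons, Id2, Smad4 and Bmpr1a in NKX1-2 wells, and none between morpholinos.

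Between morpholinos no member passed. In the morula, edgeR called 0 of the 7 members tested, where 0.552% of 10873 genes passed. In the blastocyst it called 0 of 7, where 0.727% of genes passed. None of the 7 had an unadjusted p under 0.05 by edgeR in either stage. DESeq2 and limma voom also called 0, and Bambi in the morula was the only member with an unadjusted p under 0.05, by limma voom. The median log2 fold change of the 7 was -0.18 in the morula and 0.13 in the blastocyst, against -0.0044 and -0.0026 over all genes tested.

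Id3 had lower levels in the NKX1-2 sum than in the control sum of both morula plates, at 0.669 and 0.906 times. In the blastocyst the plates went opposite ways, at 0.375 times in replicate 1 and 1.52 times in replicate 2. The fitted log2 fold change was -0.36 in the morula (95% interval -2.32 to 1.60, edgeR adjusted p = 0.908) and -0.37 in the blastocyst (95% interval -2.74 to 2.01, edgeR adjusted p = 0.878). These intervals hold changes as large as the fall between stages, so a smaller effect of the morpholino could not be told from none.

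Leaving out either blastocyst plate changed the calls of Id3. Without blastocyst replicate 1, Id3 passed as lower in the morula (log2 fold change -0.36, edgeR adjusted p = 5.6e-04) and as higher in the blastocyst (0.61, edgeR adjusted p = 0.00914). Without blastocyst replicate 2, it passed as lower in the morula (-0.36, edgeR adjusted p = 3.9e-04) and as lower in the blastocyst (-1.41, edgeR adjusted p = 2.2e-13). A plate left alone in its stage is assumed to vary like the other stage there. In replicate 1 of the blastocyst, 74.5% of NKX1-2 wells and 34.9% of control wells had Xist and no Y-linked counts, and in replicate 2 45.5% and 14.0%. Among such wells alone the log2 fold change of Id3 in the blastocyst was -0.78 (edgeR adjusted p = 0.941).

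Bambi was lower with the NKX1-2 morpholino in both morula plates, at 0.688 and 0.605 times the control sum. Its log2 fold change was -0.64 (SE 0.32, 95% interval -1.32 to 0.04, edgeR adjusted p = 0.499). Without blastocyst replicate 1 or replicate 2, which share the estimate of the spread, its edgeR adjusted p in the morula was 0.0350 and 0.0383. In the blastocyst the NKX1-2 sum of Bambi was 3.08 times the control sum in replicate 1 and 0.509 times in replicate 2. Id2 in the blastocyst had a log2 fold change of 0.76 (SE 0.47, 95% interval -0.23 to 1.76, edgeR adjusted p = 0.506). Its counts were higher with the NKX1-2 morpholino in both plates, 15 against 2 and 33 against 24. The size rested on the plate: it was 0.27 without blastocyst replicate 1 and 2.43 without blastocyst replicate 2 (edgeR adjusted p = 0.844 and 0.178).

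The intervals of the other members tested held 0 as well. Bmpr1a had log2 fold changes of -0.03 in the morula (95% interval -0.41 to 0.34) and -0.35 in the blastocyst (-0.83 to 0.14). For Bmpr2 they were 0.25 (-0.39 to 0.90) and 0.13 (-0.71 to 0.97), for Smad4 -0.32 (-1.10 to 0.45) and 0.24 (-0.52 to 1.00), and for Id1 0.47 (-0.81 to 1.75) and 0.64 (-1.33 to 2.61). For the difference of the morpholino effect between stages, edgeR called 0 of 7 members, where 0.0184% of genes passed, and 0 had an unadjusted p under 0.05. DESeq2 and limma voom called 0 of 7 as well.

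Counted by well, Id3 was found in nearly every morula well and in fewer blastocyst wells. It had a count in 189 of 191 morula wells (99.0%) and 129 of 177 blastocyst wells (72.9%). In the morula plates, 48 of 48, 46 of 48, 48 of 48 and 47 of 47 wells had a count of Id3 in the control and NKX1-2 wells of replicates 1 and 2, in that order. In the blastocyst plates these were 30 of 43, 28 of 47, 34 of 43 and 37 of 44. Thinned to 10000 counts per well, which leaves out shallower wells (1 of the morula and 2 of the blastocyst), Id3 was found in 92.6% and 51.4% of wells. The stage groups did not overlap either way.

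Levels of Id3 within wells spread widely. In morula control wells the median on the scale of log2(CPM + 1) was 9.44 in replicate 1 and 9.74 in replicate 2, with lowest wells at 6.73 and 6.85 and highest at 11.7 and 11.4. In NKX1-2 wells the medians were 8.33 and 9.57, and the lowest well was at 0 in replicate 1 and at 4.84 in replicate 2. In blastocyst wells the medians were 6.21 and 6.09 in control wells and 5.11 and 6.38 in NKX1-2 wells. The highest blastocyst wells reached 9.17 to 10.0, which is within the range of morula wells.

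**Figure D3:**
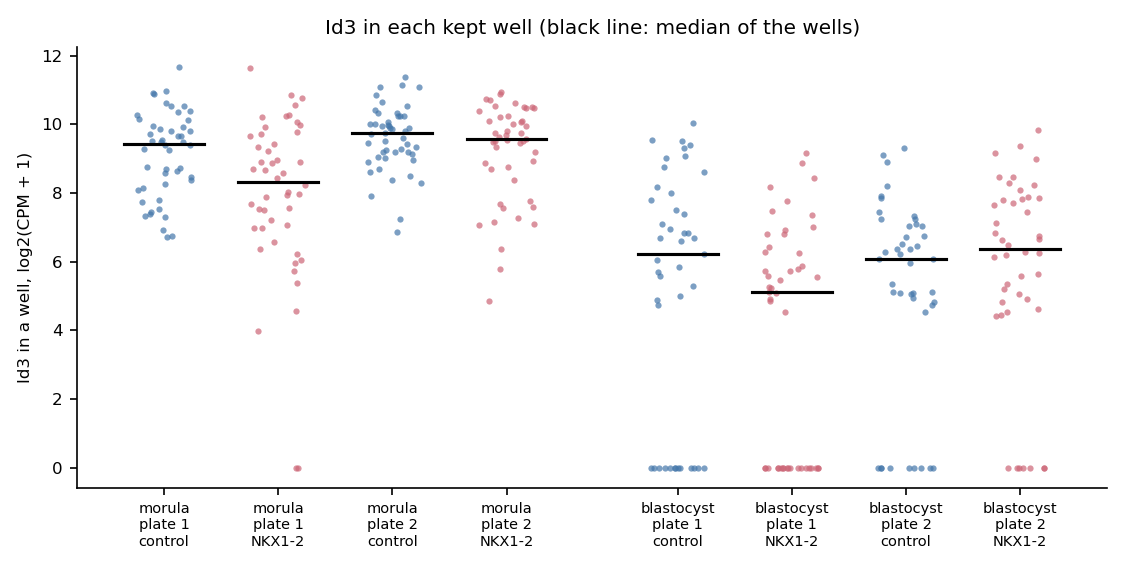
Id3 in each kept well on the scale of log2(CPM + 1) (y axis), by stage, plate and morpholino, with the median of the wells as a black line. Medians are 8.33 to 9.74 in the 4 morula groups and 5.11 to 6.38 in the 4 blastocyst groups, where 7 to 19 wells per group are at 0.

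The receptors were found in fewer wells at the blastocyst stage. Bmpr1a had a count in 88.5% of morula and 59.9% of blastocyst wells, and in 45.3% and 26.3% after thinning, when its stage groups overlapped. Bmpr2 had a count in 45.5% and 25.4% of wells, and in 14.2% and 10.9% after thinning, a narrower gap. Bambi had a count in 57.1% and 31.1% of wells, and in 22.6% and 10.3% after thinning. Its blastocyst wells ranged from 5 of 43 in control wells of replicate 1 to 19 of 44 in NKX1-2 wells of replicate 2.

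Id2 and Smad4 went the other way in spite of the lower depth of blastocyst wells. Id2 had a count in 9.9% of morula and 19.8% of blastocyst wells, and in 4.2% and 9.7% after thinning. By group, 4 of 48, 7 of 48, 5 of 48 and 3 of 47 morula wells and 2 of 43, 10 of 47, 12 of 43 and 11 of 44 blastocyst wells had a count of Id2, in control and NKX1-2 wells of replicates 1 and 2. Smad4 had a count in 31.9% and 42.9% of wells, and in 8.9% and 13.7% after thinning. Id1 had a count in 20.4% and 6.8% of wells, Smad1 in 10.5% and 4.0%, Smad5 in 6.3% and 9.0%, and Bmp4 in 3.1% and 0%. After thinning these 4 were each found in at most 3.2% of wells of a stage, too few to rank.

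**Figure D4:**
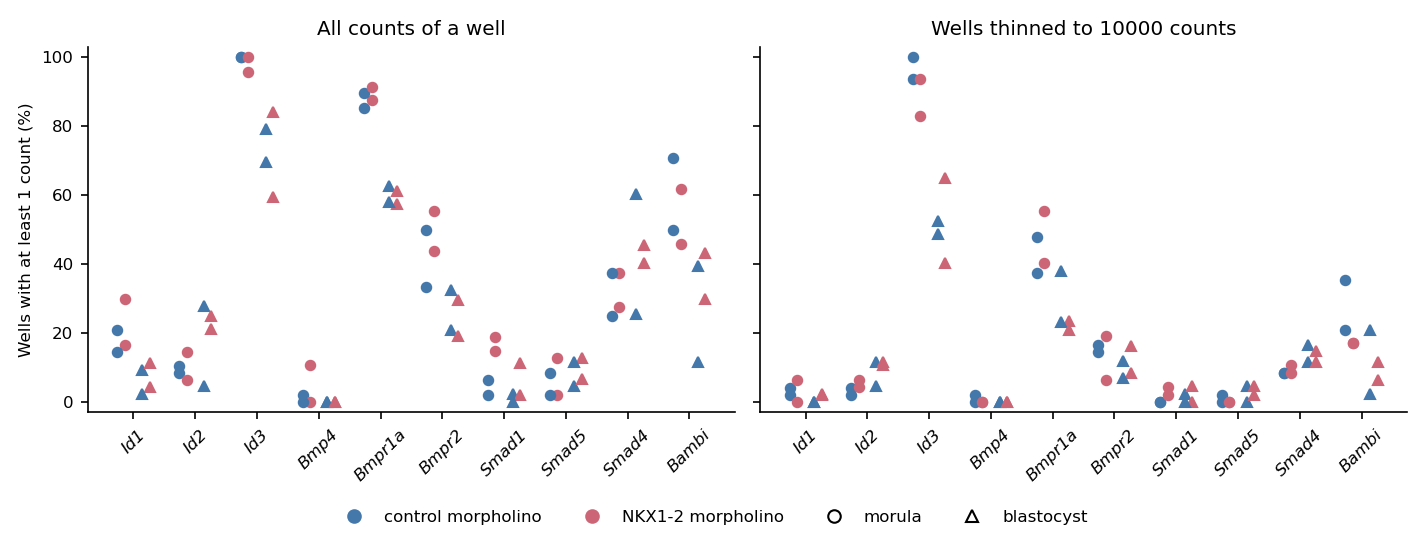
Share of kept wells with at least 1 count of each gene (y axis, percent), with all counts (left) and with wells thinned to 10000 counts (right). Each point is 1 plate and morpholino. For Id3 and Bmpr1a all morula points with all counts lie above all blastocyst points. After thinning Bmpr1a overlaps, with 37.5% in control wells of morula replicate 2 and 38.1% in those of blastocyst replicate 1.

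Co-expression over wells was computed within each plate and morpholino and averaged over the 4 groups of a stage, as a Spearman correlation of log2(CPM + 1). Wells of a group share a library and differ in depth, and most members have few counts, so these values are a description without a test. The firmest pair in the morula was Id3 and Bmpr1a, with a mean of 0.24 (0.13 to 0.40 over the 4 groups), and 0.23 after thinning. No other pair of members had the same sign in all 4 groups of the morula with a mean beyond 0.1 in size. In the blastocyst, Smad4 and Bambi had a mean of -0.21 (-0.30 to -0.10), which became -0.02 after thinning. Bmpr1a and Bmpr2 had a mean of -0.11 there, negative in all 4 groups, and 0.0040 after thinning.

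Id2 and Id3 went with opposite lineage markers in the blastocyst. Over the 11 trophectoderm markers with enough counts, of 15 listed, the mean correlation with Id2 was positive for 11 and positive in all 4 groups for 8. With Id3 it was negative for 10 of the 11 and negative in all 4 groups for 8. The summed trophectoderm list had a mean correlation of 0.31 with Id2 (0.21 to 0.41) and -0.30 with Id3 (-0.44 to -0.18), and after thinning 0.27 and -0.22. The summed inner cell mass and epiblast list had -0.22 with Id2 (-0.38 to -0.05) and 0.28 with Id3 (0.21 to 0.35), and after thinning -0.19 and 0.12.

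Some single markers, named here after their values were seen, showed the same opposition. Gata3, a trophectoderm transcription factor, had a mean correlation of -0.40 with Id3 and 0.32 with Id2. Lrp2, an endocytic receptor of the trophectoderm list, had -0.35 and 0.32, and Krt18, an epithelial keratin, -0.21 and 0.32. Klf2, a pluripotency factor, had 0.33 with Id3 and -0.22 with Id2. The inner cell mass list itself went both ways: with Id3 the mean was positive for 8 of 11 markers and negative for 3, and positive in all 4 groups for 3. With Id2 it was negative for 8 and positive for 3, and negative in all 4 groups for 4. Nanog and Pou5f1, which define the inner cell mass, were near 0 with both genes.

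The contrast can also be given in summed counts, from the same wells and marker list as the correlations, so it adds no separate support. Within each plate and morpholino, blastocyst wells were ranked by their summed trophectoderm markers and split at the median. CPM of these sets used plain totals, without TMM. Id2 had 3.4, 18.6, 25.5 and 33.9 CPM in the upper set of wells (control and NKX1-2 of replicate 1, then of replicate 2) and 0, 2.8, 7.0 and 4.8 CPM in the lower set. Id3 had 139, 25.8, 89.8 and 119 CPM in the upper set and 301, 140, 126 and 206 CPM in the lower. Id2 was thus higher and Id3 lower in the upper set of all 4 groups, but in control wells of replicate 1 Id2 had only 2 counts, in 2 wells. In the upper sets of replicate 2, single wells held 8 counts of Id2 (control) and 12 (NKX1-2). Wells with a count of Id2 were 2, 8, 8 and 8 in the upper sets and 0, 2, 4 and 3 in the lower, in the same order. Pooled over the 4 groups, 22 of the 35 blastocyst wells with a count of Id2 (62.9%) also had a count of Id3. Among wells without Id2 it was 107 of 142 (75.4%). The groups did not agree on this. With Id2 the share was lower in NKX1-2 wells of replicate 1 and control wells of replicate 2. It was higher in control wells of replicate 1 and NKX1-2 wells of replicate 2. Whether a well held 1 cell is not given in the sources used here. Xist and Y-linked counts stood together in 8 of 43 and 7 of 47 wells of blastocyst replicate 1 and in 19 of 43 and 22 of 44 of replicate 2 (control, then NKX1-2), so a well is not taken here as 1 cell. The direct correlation of Id2 and Id3 was weak, with a mean of -0.15 (-0.38 to 0.04).

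**Figure D5:**
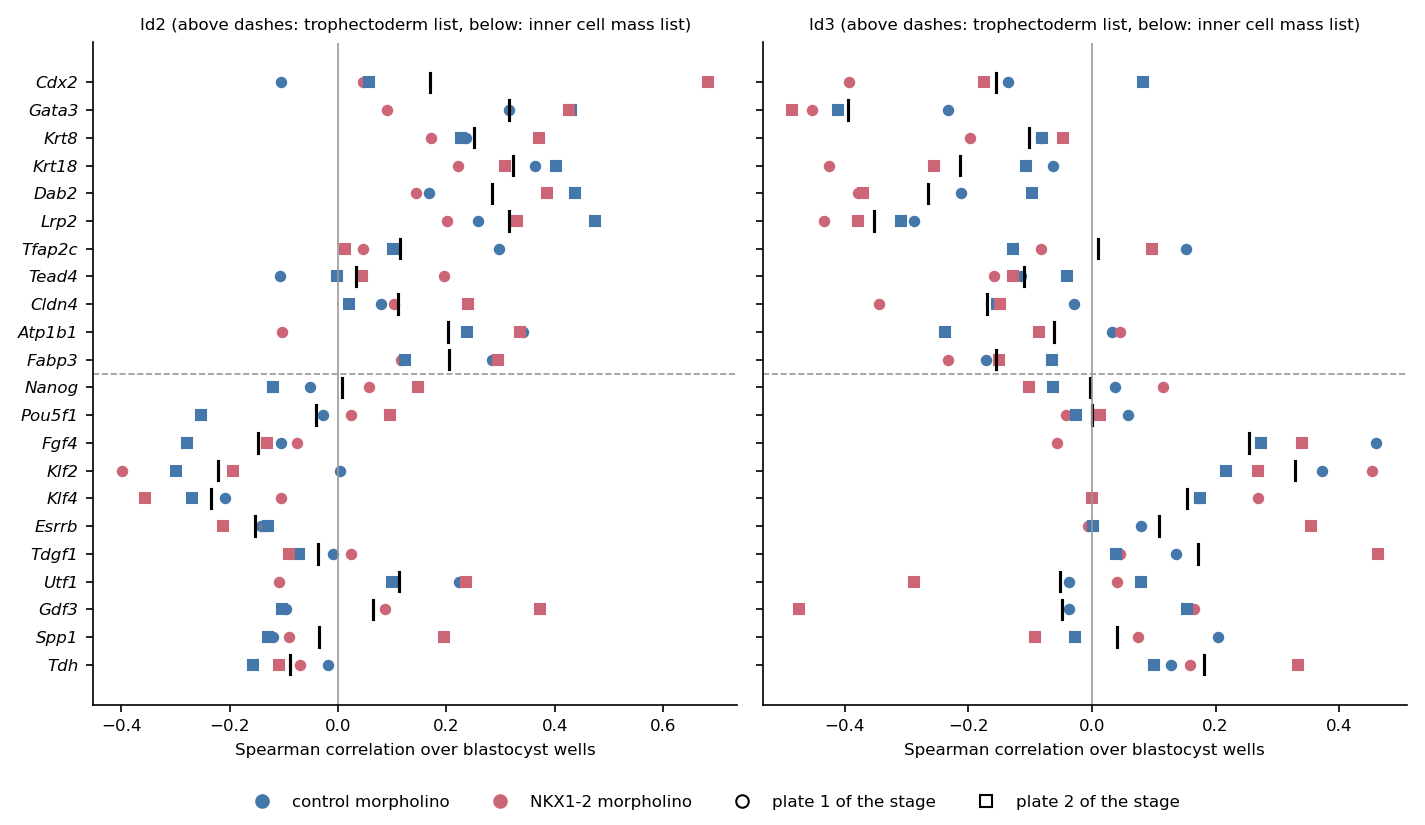
Spearman correlation over blastocyst wells (x axis) of Id2 (left) and Id3 (right) with each trophectoderm marker (above the dashed line) and inner cell mass marker (below), 1 point per plate and morpholino, with the mean as a black bar. For Id2 all 11 trophectoderm means are above 0, and for Id3 10 of 11 are below 0.

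In the morula the opposition was not seen, but Id2 had only 22 counts there, in 19 of 191 wells. With so few counts its correlations could hardly have shown one. The trophectoderm list had a mean correlation of -0.02 with Id2 (-0.31 to 0.25) and 0.12 with Id3 (-0.18 to 0.38). The inner cell mass and epiblast list had 0.22 with Id3 (0.16 to 0.30), positive in all 4 groups as in the blastocyst. Of single morula markers, the mean with Id3 was positive for 8 of 10 of trophectoderm and 8 of 9 of inner cell mass and epiblast. It was also positive for 4 of 5 of a further lineage list, primitive endoderm. Positive means with Id3 in the morula were thus not particular to the inner cell mass list. The difference between the stages was not tested. For the receptors, Smad4 and Bambi, the mean correlations with the summed lineage lists stayed between -0.17 and 0.20 at both stages.

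The genes most like Id3 over wells were sought among 9598 genes of the morula and 7758 of the blastocyst. In the morula they were Cenpa, the centromeric histone, with a mean correlation of 0.60 (0.52 to 0.72 over 4 groups), Nfyc, a subunit of the CCAAT-binding factor, with 0.49 (0.40 to 0.61), and Rbm47, an RNA-binding protein, with 0.47 (0.28 to 0.65). In the blastocyst they were Spic, an ETS-family factor, with 0.44 (0.34 to 0.58), Hand1, a basic helix-loop-helix factor, with 0.42 (0.27 to 0.65), and Sat1, an enzyme of polyamine breakdown, with 0.41 (0.21 to 0.57). For the other members with enough counts the highest mean was 0.31 to 0.35 in the morula, save Bmpr2 and Smad4 at 0.29 each, and 0.30 to 0.33 in the blastocyst. All these values, those of Id3 included, are the highest among the genes compared, so the choice itself raises them. They were not computed on thinned wells.

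Of 84 further genes of the pathway, 83 were in the files, and 27 passed the filter for the morpholino comparisons. None of the 27 passed in edgeR in the morula or the blastocyst, with 2 (Rgmb and Tob1) and 3 (Runx1, Smad2 and Tob1) at an unadjusted p under 0.05, and DESeq2 and limma voom called 0. Ligands were scarce: 1 of 15, Gdf9, and 1 of 17 secreted antagonists were tested. Between stages in control wells, 1 of 23 rose and 4 fell, and in NKX1-2 wells 1 of 24 rose and 5 fell. These are 21.7% and 25.0% of those tested, beside the 41.7% and 45.9% over all genes, and the median log2 fold change was -0.21 and -0.24, against -0.01 and -0.02 over all genes tested.

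The further genes that changed between stages were few. Those named passed in edgeR and limma voom, but with DESeq2 Gdf9, Tcf3 and Skil did not pass in control wells (DESeq2 adjusted p = 0.0554, 0.0647 and 0.0986), nor did Gdf9 in NKX1-2 wells (DESeq2 adjusted p = 0.0839). Hand1, a partner of E proteins, fell from 371 and 321 CPM in morula control sums to 99.0 and 41.5 CPM in blastocyst control sums (log2 fold change -2.33, SE 0.29, edgeR adjusted p = 1.1e-05). In NKX1-2 sums it fell by 2.67 on the log2 scale (edgeR adjusted p = 0.00878). Tcf3, an E protein that Id proteins bind, fell by 1.47 in control wells (edgeR adjusted p = 0.00878) and by 2.43 in NKX1-2 wells (edgeR adjusted p = 1.0e-04). Ppm1a, a phosphatase that acts on SMADs, fell by 0.84 and 0.82 (edgeR adjusted p = 2.7e-04 and 4.1e-04).

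Gdf9, an oocyte ligand of the family, fell by 3.97 in control wells (edgeR adjusted p = 0.00144) and by 2.26 in NKX1-2 wells (edgeR adjusted p = 0.00476). Its levels were 6.26 to 9.92 CPM in morula sums and 0 to 2.32 CPM in blastocyst sums. Rgmb, a BMP co-receptor, fell by 2.77 in NKX1-2 wells (edgeR adjusted p = 6.1e-04), from 12.1 and 13.1 CPM to 2.32 and 1.32 CPM. Skil, a repressor partner of SMADs, was the gene that rose, by 1.40 in control wells (SE 0.42, edgeR adjusted p = 0.0108) and 1.70 in NKX1-2 wells (SE 0.41, edgeR adjusted p = 0.0024).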

How the data were processed

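The authors deposited counts per gene and well, whole numbers without normalization, with a table of the morpholino of each of the 96 well barcodes, which all 4 plates share. Per the submitters' processing notes, TopHat2 and the builds GRCm38 and mm10 were used, in roles not given. Whether reads or molecules were counted, and how, is not given in the sources used here. Per the labels' protocols libraries were of the Illumina TruSeq type, but 10x Genomics also stands in their descriptions.

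Wells with at least 2000 genes were kept and counts summed per plate and morpholino. The 344 neighbouring genes without any count in the morula plates were left out, among them Ube2o, Usp9x and Usp15 of the pathway list. Sums were filtered with filterByExpr, scaled by TMM and tested with robust quasi-likelihood fits (edgeR 4.0.16, R 4.3.3), with the plate as a block between morpholinos and 4 sums per stage comparison. Genes passed at an adjusted p (Benjamini-Hochberg) under 0.05. The plate pairs its sums by design, whose deviations correlated at 0.262 (morula) and -0.0021 (blastocyst). Fits were tested on simulated data with the same dispersion for every gene and no plate effect. That does not show how they fare on these plates. Wells were thinned at random with a fixed seed. DESeq2 1.42.0, limma 3.58.1, RLE factors, no filter, other well cutoffs, thinned wells, wells with Xist alone and plates left out were alternatives. Figures were drawn with matplotlib 3.10.9 under Python 3.11.15. Gene models, lengths and sequences came from GENCODE M21, to which 54586 of the 55453 symbols were matched.

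The members, the lists and the rule for named genes were chosen with earlier results of these data known. The rule names all members, the further pathway genes that passed (up to 6 per comparison) and the 3 genes most like a member over wells, for members in at least 20% of wells. Of the latter, single genes are given for Id3 and the range for the others. Floors are 3 counts and cover counting error only.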

Additional observations from a re-analysis of the deposited data

Results flagged for a closer look

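The 16 wells left out for few genes held 5 counts of Id3 in 5 wells, above the 3 counts that a count of 0 allows. They came from 1 morula well and from 4 of 15 blastocyst wells, at well totals too low to give a level. The other members had 0 to 3 counts there. With every well kept, the changes of Id3 between stages still passed in edgeR.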

How the results depend on the processing

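The fall of Id3 between stages passed under 14 of 15 alternatives in control wells and 15 of 15 in NKX1-2 wells, and the rise of Id2 in NKX1-2 wells under 14 of 14. Over all genes, the morpholino called 60 in the morula and 79 in the blastocyst, but 15 and 21 with DESeq2, 179 and 254 without the filter, 6 and 33 with thinned wells, 8 and 14 with wells of Xist and no Y-linked counts, 34 and 43 with no replicate block, and 13 to 838 and 99 to 635 with a plate left out. The difference between stages, 2 genes, became 1 with DESeq2, limma voom, every well or no replicate block, 27 without the filter, 0 with thinned or Xist wells, and 4 to 252 with a plate left out. Stage calls in control and NKX1-2 wells, 3993 and 4690, became 2513 and 2998 with DESeq2, 1958 and 2273 with thinned wells, 1602 and 2684 with Xist wells, and 2586 to 4213 and 2266 to 3592 with a plate left out. A replicate block across stages gave 3691 and 4732 and left every call of a member. Same-numbered plates of the 2 stages share only a number, with deviations that correlated at 0.029 in control and 0.0013 in NKX1-2 sums.

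Members called with a plate left out were 0 to 2 in the morula, 0 to 1 in the blastocyst, 0 to 2 for the difference, and 1 to 3 and 2 to 4 between stages. Between stages, 3 were called in control wells without the filter and 2 with all 8 sums in 1 fit, and in NKX1-2 wells 2 with DESeq2 and 2 with thinned wells, where Id2 and Smad4 could not be tested. In the fit of all 8 sums, the control and NKX1-2 sums of a plate are no further replicates. Signs turned for values that had not passed. In the morula, Bmpr1a was 0.34 with thinned and 0.20 with Xist wells, and Bmpr2 was -0.24 with Xist wells. In the blastocyst, Bmpr2 was -0.22 with Xist wells and -0.065 without its highest wells, and Bambi was 0.10 with DESeq2 and 0.99 with Xist wells. The difference for Id3 was 0.0014 with limma voom, 0.035 without the filter, 0.017 with wells of at least 4000 genes and 0.33 with thinned wells. With a plate left out, log2 values in the morula ranged from -0.53 to 0.11 for Id2, -0.13 to 0.10 for Bmpr1a and -0.74 to 0.050 for Smad4. In the blastocyst they ranged from -1.73 to 3.04 for Id1, -1.41 to 0.61 for Id3, -0.050 to 0.66 for Smad4 and -0.97 to 1.61 for Bambi, and from -1.06 to 0.97 for the difference of Id3. Between stages they ranged from -0.40 to 0.10 for Bmpr2 in control wells, and from -0.60 to 0.011 for Bmpr2 and -1.94 to 0.13 for Id1 in NKX1-2 wells. Thinning moved 63 of 80 shares of wells by more than the spread of plates. Fewer counts per well lower such shares by design, so this number does not bear on the contrasts between groups. Under an alternative, 3 of 60 correlations of Id2 and Id3 moved. Except for fewer samples, counts per well or genes tested, the cause was not tested. With 2 plates per group, and under 40 counts per sum for Id1, Id2, Smad1, Smad4, Smad5 and Bmp4, changes in these genes can be missed.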
